A study of Rattus norvegicus with 20 samples.

Results

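The mitochondrial ribosomal protein genes were taken as all rat array probes, controls left out, whose gene name begins with Mrpl or Mrps followed by a digit, after removal of the endings for predicted or mapped genes. The rule found 61 probes for 53 gene names, of 41012 probes and 36459 names on the array, and the brightest probe stood for each gene. Of the 53 genes, 52 passed the brightness filter and were measured in all 10 animals, among 33211 genes tested. Mrps10, a small-subunit protein, did not pass: its probe was well above background on 4 and 2 of 10 arrays at day 7 (sprouting and non-sprouting channels) and on 0 at day 21, so it has no value below. The array spells mrpl9, mrpl11 and mrpl24 in lower case, which the rule does not take, and these 3 are described with the related genes.

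The study compared cortical neurons labelled as sprouting after stroke with neurons labelled as non-sprouting in the same animals, in 2-month-old rats whose strain and sex the labels do not give. A first tracer (cholera toxin B with Alexa 488) went into the cortex beside the infarct, and a second (Alexa 647) into the same place after 7 or 21 days, in separate cohorts. About 300 neurons of each type were laser-captured per animal 7 days after the second tracer, and their RNA was amplified by 2 rounds of T7 transcription. Each cohort holds 5 animals, and each animal gave a dye-swapped pair of 2-colour arrays with sprouting neurons in one channel and non-sprouting neurons in the other, so both groups carry the same stroke, both tracer injections and the same age. No animal without stroke is among the samples used here. Captured pools are bulk samples: fewer cells of a type and less RNA per cell cannot be told apart in them.

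Mitochondria keep a small genome of their own, and the proteins it encodes are all translated inside the organelle by a ribosome with a large and a small subunit. Those proteins are core parts of the respiratory chain and the ATP synthase. The RNAs of that ribosome come from the mitochondrial genome, while every one of its proteins is encoded in the nucleus, made in the cytosol and imported. Some of the proteins descend from bacterial ribosomal proteins and others joined the ribosome later. The family has 33 members here whose products sit in the large subunit, 19 with bacterial kin and 14 counted as without. A further 19 are named for the small subunit, 11 with and 8 counted as without, Mrps36 and Mrps18b among the 8. Mrps18a and Mrps30 are counted with the large subunit, where their products are found. Both are among the 14, although Mrps18a, like Mrps18b, is a relative of bacterial S18. Mrps36 is kept under its array name although current annotation calls it Kgd4, a part of the 2-oxoglutarate dehydrogenase complex and not of the ribosome.

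Promoter letters are shown first because the rule did not use them. Promoter windows of 300 bases, 250 before and 50 after the start site, were matched for 43 of the 52 genes in the RefSeq table of build GRCr8. Nuclear genes for mitochondrial proteins are known to be served by the factors NRF1, GABP and YY1, and exact letters of each site were searched on both strands. The GABP core CCGGAAG was in 14 of 43 windows (32.6%), against 8.75% of all 33469 promoters and 10.7% of the 21851 of protein-coding genes. The YY1 letters AANATGGCG were in 10 windows (23.3%), against 3.01% and 3.67%. The NRF1 letters GCGCANGCG, whose matches on both strands can overlap, were in 9 (20.9%), against 5.8% and 7.62%. The TATA letters TATAAA were in 4 (9.3%), against 14.2% and 13%. Of the 43 windows 27 held at least 1 of the GABP, YY1 and NRF1 letters and 16 held none. For 62 cytosolic ribosomal protein genes the shares were 32.3% for GABP, 9.68% for YY1, 12.9% for NRF1 and 9.68% for TATA. The median GC content was 56.3% in the members, 51.7% in all promoters and 55% in those of protein-coding genes, and its part in the shares was not tested. The YY1 letters hold an ATG, and in the members most of their matches began at or after the start site. The part of ATG start codons in the YY1 share was not tested either. A match is a description of letters and not evidence of binding.

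Below are 3 stretches from 80 bases before the start site to 10 bases after it, chosen because each holds more than 1 match, followed by 2 short stretches of 30 bases that show the YY1 letters after the start site. All are from RefSeq GRCr8, 5′ to 3′ on the gene's strand, with the matched letters in capitals. Mrps18b is at chr20:2842926-2843015 (plus strand) and holds the NRF1 letters on both strands, overlapping in 1 run, followed by the GABP core on the other strand. Mrpl53 is at chr4:117172963-117173052 (plus strand) and holds the GABP core once on each strand. Mrps18a is at chr9:22367371-22367460 (minus strand) and holds the GABP core, with the YY1 letters directly at the start site. Mrpl1 is at chr14:13663488-13663517 (minus strand) and Mrps27 at chr2:32474223-32474252 (plus strand).
Mrps18b: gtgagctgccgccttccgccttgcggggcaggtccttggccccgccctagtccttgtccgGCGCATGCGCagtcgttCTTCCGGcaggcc
Mrpl53: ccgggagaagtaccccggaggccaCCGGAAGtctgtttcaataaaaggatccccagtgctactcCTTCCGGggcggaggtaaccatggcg
Mrps18a: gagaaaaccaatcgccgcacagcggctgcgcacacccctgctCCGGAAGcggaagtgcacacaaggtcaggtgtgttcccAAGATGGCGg
Mrpl1: cggaacagtcAACATGGCGgcggccgcaag
Mrps27: ggtacgctccAAGATGGCGgcccccatggt

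Values are log2 ratios of sprouting over non-sprouting neurons, 1 per animal, after loess normalization within each array and averaging of the dye-swapped pair; 0 means equal signal. Of the 52 members, 43 were well above background in all 40 channels and none was saturated. The other 9 (Mrpl43, Mrpl52, Mrps2, Mrps7, Mrps27, Mrpl49, Mrpl10, Mrpl38 and Mrpl4) fell short in at least 1 channel. Of the 11 neuron markers tested, 8 were well above background in all 40 channels. So were 7 of 10 astrocyte, 6 of 12 oligodendrocyte, 8 of 11 microglia, 6 of 9 endothelial and mural, and 6 of 6 GABAergic interneuron markers. The share of all genes that reached this in all 40 channels is not given here. The flag was common, with 40.3% to 94.6% of probes well above background. These counts are a description, and which cells the signals came from was not tested.

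The libraries that stood apart were all of the day 21 cohort. In day 21 replicate 4 the dye-swapped arrays disagreed over the whole array. Over all genes their ratios had a Pearson r of -0.358, against 0.335 to 0.733 in the other animals. The SD of all genes was 0.0651, against 0.155 to 0.239. Over 51 members r was -0.47, 17 had the same sign on both, and the members' SD of 0.05 was the narrowest of all animals. The signs of this animal's averaged ratios are therefore uncertain. It is kept in the day 21 means and counts below unless said to be left out. Day 21 replicates 2 and 3 had the widest members, with SDs of 0.30 and 0.31, against 0.12 to 0.16 in the day 7 animals. On the array of day 21 replicate 3 with sprouting neurons in Cy5, 57.1% of spots, 29 of the 52 members among them, carried the scanner software's flag for uneven local background. The other 19 arrays had 0.0024% to 7.47%. Day 21 replicate 1 had the weakest agreement of its 2 arrays over all genes after replicate 4 (r = 0.335, and 0.358 over the members). The day 7 animals had 0.588 to 0.73 over all genes.

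**Figure D1:**
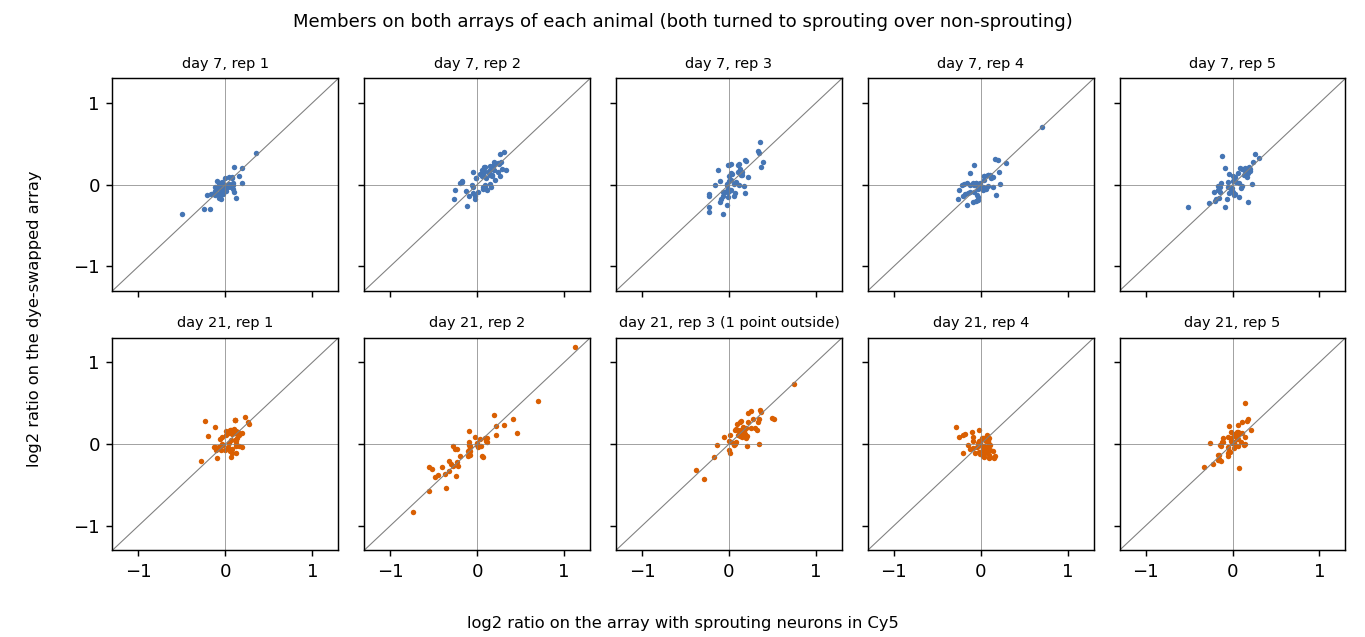
Log2 ratios of the members on the array with sprouting neurons in Cy5 (x axis) against the dye-swapped array of the same animal (y axis), 1 panel per animal and 1 point per gene; the grey diagonal marks equal values. Day 21 replicate 2 follows the diagonal over the widest range (r = 0.92), day 21 replicate 4 runs across it, and 1 point of day 21 replicate 3 (Mrpl4, 3.91 against 0.01) lies outside the axes.

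As a whole the family differed little between sprouting and non-sprouting neurons. At day 7 the mean ratio was above 0 for 35 of 52 members (67.3%), against 46.6% of all genes, and the members' median was 0.021 against -0.0053 for all genes. At day 21 it was above 0 for 36 of 52 (69.2%), against 49% of all genes, with a median of 0.031. With median centring in place of loess the direction turned: 8 of 52 were above 0 at day 7 (median -0.12) and 25 of 52 at day 21 (median -0.0024). On that scale the brightest 6642 of all genes, which include 38 of the members, had a median of -0.16 at day 7, against -0.0038 after loess. On the other scales run (no background subtraction, scaling between arrays, the software's processed signals and the deposited ratios) the members' medians stayed above 0 at both days, and on every scale they were far below a 1.5-fold difference.

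Animals varied more than the family's median. The members' medians at day 7 were -0.026, 0.087, 0.034, -0.017 and 0.035 in replicates 1 to 5, with 18, 38, 29, 22 and 29 of 52 members above 0. At day 21 they were 0.053, -0.070, 0.15, -0.0035 and 0.019, with 33, 18, 46, 23 and 31 above 0. In both cohorts 3 animals were above 0 and 2 below on this loess scale, and day 21 replicate 4, whose arrays disagree, is 1 of those below. Under median centring the medians were 0.13, -0.16, -0.20, -0.22 and -0.12 at day 7. At day 21 they were 0.0078, -0.34, 0.39, -0.040 and -0.066 on that scale. The means of the loess medians were 0.023 ± 0.045 (SD, n = 5) at day 7 and 0.030 ± 0.082 (SD, n = 5) at day 21, and both spreads are larger than the means. The highest median, in day 21 replicate 3, was the same on its flagged array (0.15) and on its dye swap (0.15). The day 21 direction rested on replicate 3: without it 24 of 52 members had a mean above 0 and the median was -0.0055. Without replicate 2 it was 40 of 52 with a median of 0.047, and without both 32 of 52 with a median of 0.028. At day 7 the median fell most without replicate 2, to 0.0089 with 29 of 52 above 0. Without day 21 replicate 4, 37 of 52 were above 0, with a median of 0.035. No member passed the test in any of these fits (limma).

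**Figure D2:**
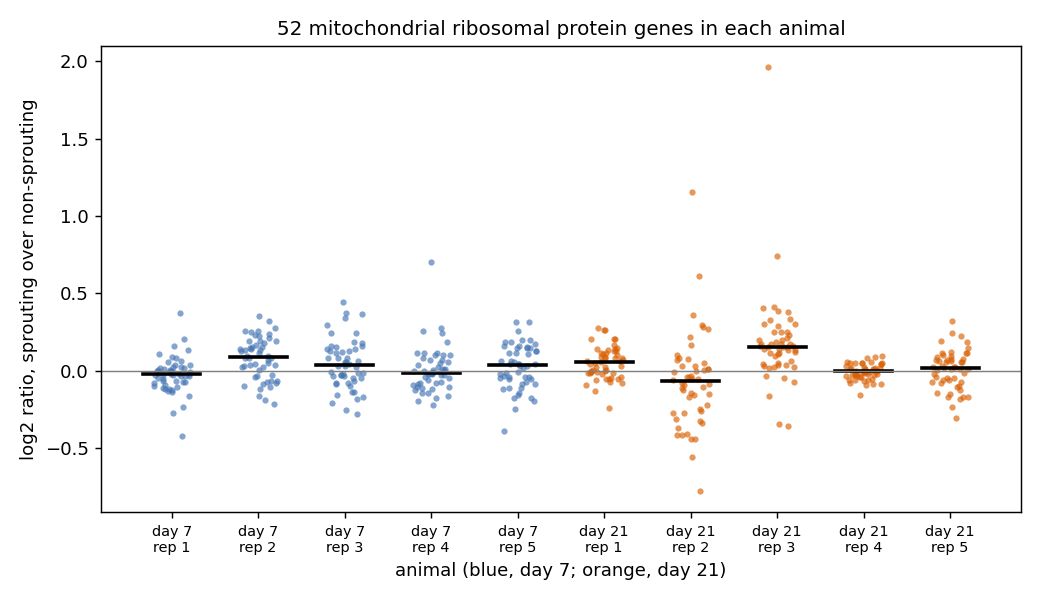
Log2 ratio of sprouting over non-sprouting neurons (y axis) for each of the 52 members (points) in each animal (x axis), with the members' median as a black bar; points are spread sideways for legibility. Medians lie between -0.070 and 0.15 and on both sides of 0 in each cohort, a placing that median centring in place of loess changes, and the points of day 21 replicates 2 and 3 are the most widely spread.

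No member passed a Benjamini-Hochberg adjusted p of 0.05 at either day (limma; smallest adjusted p of a member 0.477 at day 7 and 0.841 at day 21), when 0.00301% of all genes did at day 7 and 0% at day 21. At an unadjusted p under 0.05 there were 3 members at day 7, all with a mean above 0 (Mrps18b, Mrpl35 and Mrpl43, the last of which passed the brightness filter through the sprouting channel alone), against 9.49% of all genes, with 4.5% of all genes higher. At day 21 there were 0, against 5.85% of all genes. The members' share at day 7, 3 of 52, is under the background. No member had the same sign in 5 of 5 animals at either day. Among all genes measured in 5 animals, 3.53% were higher and 5.1% lower in every animal at day 7, and 4.29% and 4.08% at day 21.

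On the loess scale the fit gives each member's mean an interval from the spread between animals. The intervals leave out the choice of scale, which moved the members' day 7 median from 0.021 to -0.12 under median centring. At day 21 they include replicate 4, whose arrays disagree. The 95% interval of a member's mean had a median half-width of 0.141 on the log2 scale at each day. It lay within a 1.5-fold difference either way (0.585 on the log2 scale) for 51 of 52 members at day 7 and 50 of 52 at day 21. The exceptions were Mrpl4 at both days and Mrpl3 at day 21. At day 7 the interval of Mrpl4 ran from -0.61 to 0.54 although its ratios there had an SD of 0.13, since both days share 1 estimate of the spread and its day 21 SD was 0.92.

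**Figure D3:**
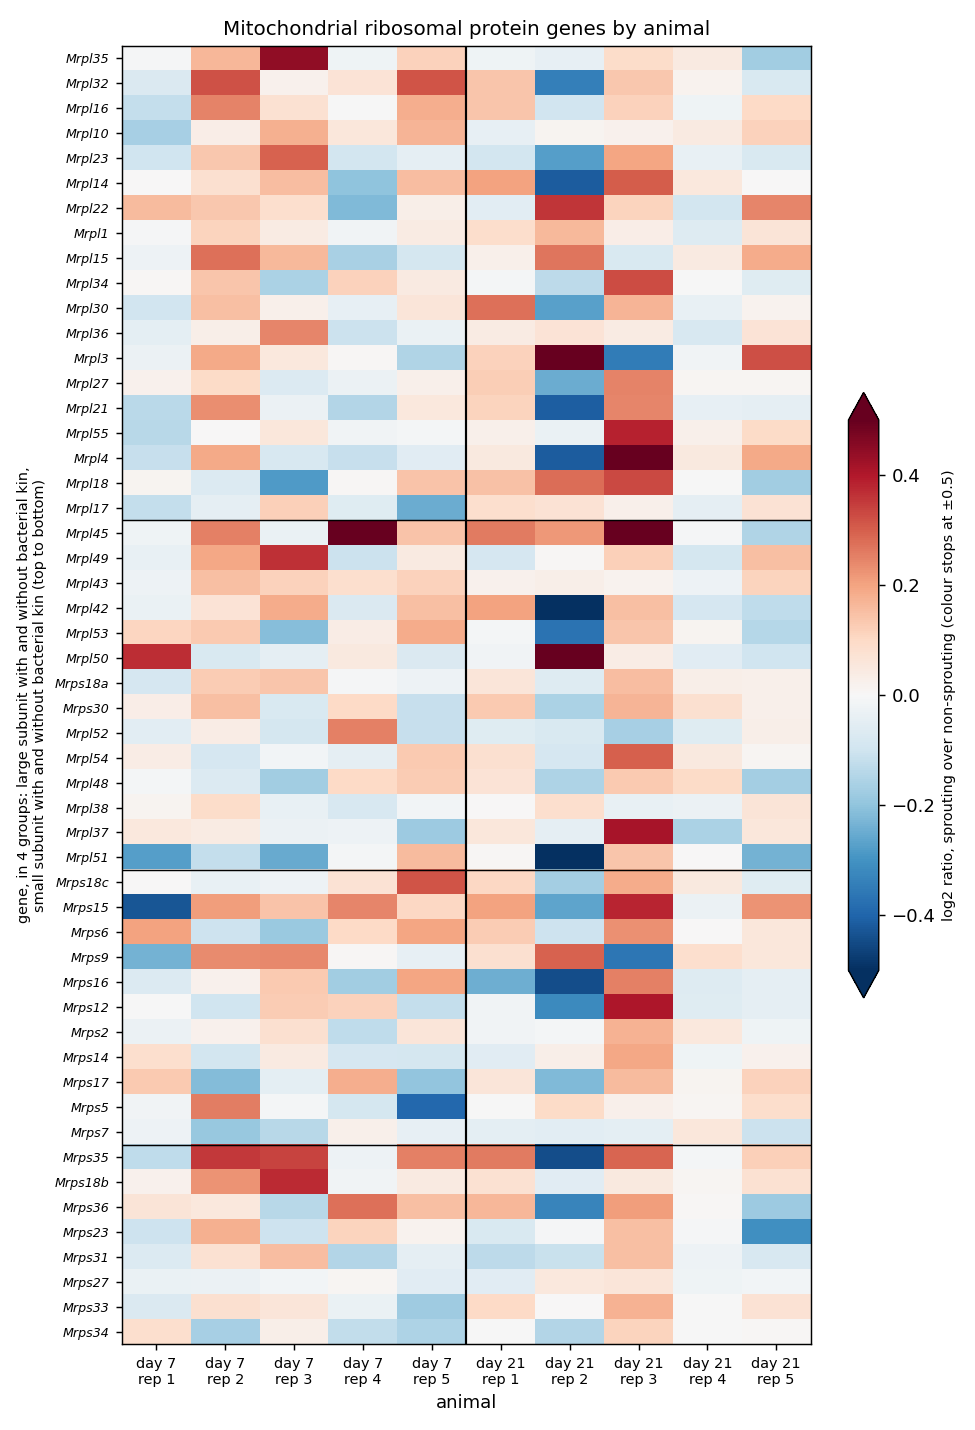
Log2 ratios of the 52 members (rows, in 4 groups by subunit and bacterial kin, each ordered by its day 7 mean) in the 10 animals (columns); red is higher and blue lower in sprouting neurons, and colours stop at 0.5 in either direction. No row has one colour across a cohort, and the darkest cells gather in day 21 replicates 2 and 3.

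Among large-subunit proteins with bacterial kin, which include those that line the peptide tunnel and the catalytic centre, 14 of 19 had a mean above 0 at day 7 and 15 of 19 at day 21, with medians of 0.030 and 0.031. Mrpl35, kin to bacterial L35, had the highest mean of the group at day 7, with ratios of -0.0044, 0.17, 0.44, -0.020 and 0.12. Replicate 3 was the highest and 2 animals were just below 0. Its mean was 0.14 ± 0.19 (SD, n = 5; unadjusted p = 0.0499, adjusted p = 0.526, limma), and 0.064 without replicate 3. At day 21 it was -0.019 ± 0.10. The dye-swapped arrays had opposite signs in 2 of 5 animals at day 7 and 4 of 5 at day 21. The day 21 mean was 0.058 with sprouting neurons in Cy5 and -0.097 with them in Cy3. Mrpl32, kin to L32, followed at day 7 with 0.13 ± 0.18, and Mrpl17, kin to L17, was lowest with -0.071 ± 0.13 (1 of 5 animals above 0). At day 21 the lowest mean was that of Mrpl23, -0.056 ± 0.17.

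Mrpl55, which takes the place of bacterial L31, had the smallest p of the family at day 21. Its ratios were 0.025, -0.035, 0.39, 0.024 and 0.096, with replicate 3 the highest and 4 of 5 animals above 0. The mean was 0.099 ± 0.17 (SD, n = 5; unadjusted p = 0.101, adjusted p = 0.841, limma), with opposite signs on the dye-swapped arrays in 3 of 5 animals, and -0.022 ± 0.072 at day 7. Mrpl1, kin to L1, followed in this group by p, with 0.057 ± 0.084 at day 21 and 4 of 5 animals above 0 (0.034 ± 0.051 at day 7). Mrpl22, kin to the tunnel protein L22, had 0.037 ± 0.15 and 0.11 ± 0.19, and Mrpl16, kin to L16, 0.078 ± 0.15 and 0.048 ± 0.10 (days 7 and 21).

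In the same group Mrpl4 and Mrpl3 had high day 21 means that each rested on a single animal. Mrpl4, kin to the tunnel protein L4, gave 0.049, -0.41, 1.96, 0.048 and 0.19 at day 21. Replicate 3 stood far above the others. Its 1.96 joined 3.91 on the flagged array to 0.01 on the dye swap. On the flagged array the Cy3 signal of 857.7 lay below its local background of 1026. With flagged spots left out the day 21 mean was -0.025 in place of 0.37 ± 0.92 (SD, n = 5; adjusted p = 0.885, limma). Mrpl3, kin to L3 beside the catalytic centre, gave 0.12, 1.15, -0.35, -0.020 and 0.32, and replicate 2 was the highest. Unlike the Mrpl4 value, this one was seen on both arrays (1.12 and 1.19). The day 21 mean was 0.25 ± 0.56 (adjusted p = 0.87, limma), and 0.018 without replicate 2.

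The large-subunit proteins counted as without bacterial kin, Mrps18a among them, sit mostly on the ribosome's outer surface. Of these, 10 of 14 had a mean above 0 at day 7 and 9 of 14 at day 21, with medians of 0.024 and 0.026. Mrpl45, which lies at the tunnel exit and holds the ribosome to the inner membrane, had the highest mean of this group at both days. Its ratios were -0.020, 0.25, -0.035, 0.70 and 0.14 at day 7, and 0.26, 0.22, 0.74, -0.0074 and -0.15 at day 21. One animal per cohort stood high, and 2 animals per cohort were below 0. Both high values were seen on both arrays, 0.70 and 0.71 in day 7 replicate 4, and 0.75 and 0.73 in day 21 replicate 3. The means were 0.21 ± 0.30 and 0.21 ± 0.34 (SD, n = 5 each; adjusted p = 0.617 and 0.858, limma), and 0.085 and 0.081 without those animals.

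Mrpl43 was the only member that passed the brightness filter through one cell type alone. Its dim probe was well above background on 7 and 4 of 10 arrays at day 7 (sprouting and non-sprouting channels) and on 5 and 3 at day 21, so its values are a description. The ratios at day 7 were -0.026, 0.15, 0.11, 0.083 and 0.12, with a mean of 0.087 ± 0.070 (SD, n = 5). The dye-swapped arrays had opposite signs in 4 of 5 animals at each day. At day 7 the mean was -0.016 with sprouting neurons in Cy5 and 0.19 with them in Cy3, and at day 21 it was -0.082 and 0.14. The day 21 mean of both was 0.030 ± 0.050.

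Mrpl51 had the lowest mean of the large subunit at both days. It gave -0.28, -0.12, -0.25, -0.010 and 0.16 at day 7 and 0.0063, -0.56, 0.14, 0.0019 and -0.23 at day 21. Animals lay on both sides of 0 in each cohort. The means were -0.10 ± 0.18 and -0.13 ± 0.28 (adjusted p = 0.746 and 0.886, limma). Mrpl42 had a day 21 mean of -0.13 ± 0.39 that came from -0.78 in replicate 2, seen on both arrays (-0.73 and -0.83), and 0.036 without it. Mrpl52 had -0.067 ± 0.070 at day 21, with 1 of 5 animals above 0, and 0.0072 ± 0.15 at day 7.

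Of the small-subunit proteins with bacterial kin, which surround the decoding site and the messenger channel, 7 of 11 had a mean above 0 at day 7 and 8 of 11 at day 21, with medians of 0.0035 and 0.031. Mrps7, kin to the S7 of the small subunit's head, had the smallest p among members with a lower mean at day 7 and over both days. Its ratios were -0.024, -0.19, -0.14, 0.025 and -0.043 at day 7 and -0.050, -0.052, -0.050, 0.056 and -0.11 at day 21. It was below 0 in 4 of 5 animals of each cohort, and replicate 4 of each was above. The dye-swapped arrays had opposite signs in 3 of 5 animals at each day. The mean was 0.017 with sprouting neurons in Cy5 and -0.16 with them in Cy3 at day 7, and 0.030 and -0.11 at day 21. Over both arrays the means were -0.074 ± 0.087 and -0.040 ± 0.059 (SD, n = 5 each; adjusted p = 0.546 and 0.91, limma). Mrps18c had the highest day 7 mean (0.065 ± 0.15), Mrps15 the highest day 21 mean (0.10 ± 0.25) and Mrps16 the lowest day 21 mean (-0.11 ± 0.26).

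The small-subunit names counted as without bacterial kin, Mrps36 and Mrps18b among them, were evenly split. Of these, 4 of 8 were above 0 at each day, with medians of 0.0079 and -0.0015. Mrps35 had the highest mean at day 7, 0.16 ± 0.22, with 3 of 5 animals above 0, and 0.044 ± 0.30 at day 21. Mrps18b is 1 of 3 mammalian relatives of bacterial S18, and is grouped here because Mrps18c takes the place of S18 in the ribosome. It gave 0.022, 0.23, 0.37, -0.016 and 0.044 at day 7. Replicates 2 and 3 were high and 1 animal was below 0. The dye-swapped arrays had the same sign in every animal of day 7. Its mean was 0.13 ± 0.16 (SD, n = 5; unadjusted p = 0.0342, adjusted p = 0.507, limma), 0.069 without replicate 3, and 0.031 ± 0.060 at day 21. Mrps27 was below 0 in 4 of 5 animals at day 7 (-0.025 ± 0.025), with opposite signs on the dye-swapped arrays in 4 of 5. Mrps34 was lowest at day 7 (-0.066 ± 0.11) and Mrps23 at day 21 (-0.050 ± 0.17). Mrps33 was highest at day 21 (0.069 ± 0.072, 4 of 5 animals above 0).

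Over both days together, 0 members passed at an adjusted p of 0.05 (limma; background 0%). At an unadjusted p under 0.05 there were 2, against 11.1% of all genes: Mrpl45 (0.21, p = 0.0425, adjusted p = 0.443) and the dim Mrpl43 (0.059), which passed the filter through the sprouting channel alone. Mrps7 followed with -0.057 (p = 0.0504, adjusted p = 0.454, limma), below 0 in 8 of 10 animals but with the array disagreement given above. The mean over both days was above 0 for 35 of 52 members, against 46.9% of all genes, with a median of 0.027, and for 12 of 52, with a median of -0.063, under median centring. Without day 21 replicate 3 it was 28 of 52, with a median of 0.0050.

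The change of the ratio from day 7 to day 21 was 0.011 at the median, with 28 of 52 members higher at day 21 (52.5% of all genes were). With median centring 42 of 52 were higher, with a median of 0.11. No member passed (limma; smallest adjusted p 0.94), and 0 had an unadjusted p under 0.05, against 4.08% of all genes. The largest positive change after that of Mrpl4 and Mrpl3 was 0.15 for Mrpl18, and the largest negative one was -0.19 for Mrpl42. Among members higher at day 21 the smallest p-values were those of Mrpl17 (0.11), Mrps33 (0.098) and Mrpl55 (0.12; adjusted p = 0.94 each, limma). Among members lower at day 21, Mrpl35 came first by p, with means of 0.14 at day 7 and -0.019 at day 21. Its dye-swapped arrays had opposite signs in 4 of 5 animals at day 21. Mrpl32 was next, with 0.13 and -0.025, then Mrps18b, the dim Mrpl43 and Mrpl53 (-0.12, adjusted p = 0.94, limma). The animals were scanned on 5 days, and 3 of these held animals of both cohorts. There the members' medians were -0.017 (day 7 replicate 4) and 0.019 (day 21 replicate 5), then 0.035 (day 7 replicate 5) against -0.070 and 0.15 (day 21 replicates 2 and 3). On the remaining one they were 0.034 (day 7 replicate 3, whose arrays were scanned on different days) against 0.053 and -0.0035 (day 21 replicates 1 and 4). The day 7 medians lay within the range of the day 21 medians on the latter 2 scan days, and the first holds 1 animal per cohort.

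**Figure D4:**
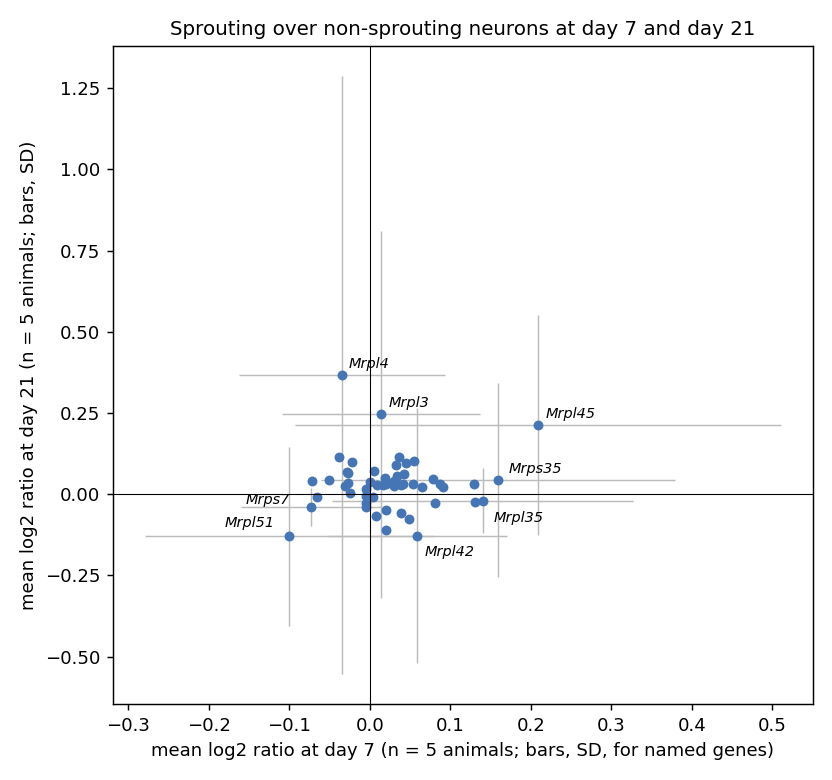
Mean log2 ratio of each member at day 7 (x axis) and day 21 (y axis), with SD bars over 5 animals for the 8 named genes. Most points lie within 0.1 of 0 on both axes, on the loess scale, and the bars of the outlying genes Mrpl4, Mrpl3 and Mrpl45 cross 0.

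The levels of the members within a cell type were compared between cohorts on normalized log2 intensities, 5 against 5 animals. In sprouting neurons the day 21 level was above the day 7 level for 28 of 52 members, with a median difference of 0.019, against 41.4% and -0.052 for all genes. In non-sprouting neurons it was above for 27 of 52, with a median of 0.0054, against 40.9% and -0.049. No member passed in either cell type (limma; smallest adjusted p 0.528 and 0.52; background 0%), and no member had cohorts that did not overlap, against 1.52% of all genes in each cell type. At an unadjusted p under 0.05 there was 1 in each, against 8.92% and 9.1% of all genes.

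The one in sprouting neurons was Mrpl42. Its sprouting levels were 9.37, 9.25, 9.20, 9.22 and 9.04 at day 7, and 8.80, 8.04, 8.63, 9.15 and 8.90 at day 21. Replicate 2 of day 21 was the lowest and replicate 4 lay within the day 7 range. The difference was -0.51 (unadjusted p = 0.0185, adjusted p = 0.528, limma), beside -0.33 in non-sprouting neurons of the same animals. In non-sprouting neurons it was Mrps18b, with levels of 8.50 to 8.95 at day 7 and 8.80 to 9.49 at day 21, a difference of 0.38 (unadjusted p = 0.0227, adjusted p = 0.52, limma) beside 0.28 in sprouting neurons. Mrps9, a small-subunit protein with bacterial kin, had the largest positive differences, 0.48 in sprouting and 0.49 in non-sprouting neurons (adjusted p = 0.561 and 0.548, limma). Mrpl50 had 0.34 and 0.29 (adjusted p = 0.57 and 0.6, limma), and Mrpl49 had -0.31 and -0.24 (adjusted p = 0.567 and 0.617, limma).

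A further 20 mitochondrial ribosomal protein genes passed the brightness filter under other names or lower-case spellings. Their mean was above 0 for 14 at day 7 (median 0.040) and for 11 at day 21 (median 0.0080), with 0 passing (limma; 2 and 1 at an unadjusted p under 0.05, against 9.49% and 5.85% of all genes, or about the background). Mrpl47, a large-subunit protein near the tunnel exit, stood out among them. Its ratios were 0.10, 0.25, 0.19, 0.11 and 0.18 at day 7 and 0.16, 0.19, 0.39, -0.046 and 0.16 at day 21. It was above 0 in 9 of 10 animals, the exception being day 21 replicate 4, whose arrays disagree. The means were 0.17 ± 0.063 and 0.17 ± 0.16 (SD, n = 5 each; over both days unadjusted p = 0.000886, adjusted p = 0.394, limma). Of the 3 in lower case, mrpl24 was above 0 in 5 of 5 animals at day 7 and 2 of 5 at day 21, mrpl9 in 1 and 4, and mrpl11 in 3 and 4.

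The rest of the machinery for translation in mitochondria gave no adjusted call either. Of 11 translation factors 5 had a mean above 0 at day 7 and 4 at day 21, and 2 and 1 had an unadjusted p under 0.05 (9.49% and 5.85% of all genes did). Guf1, kin to the bacterial elongation factor LepA, had the smallest p over both days, with means of -0.052 ± 0.055 and -0.26 ± 0.25 (adjusted p = 0.404, limma). Of 20 aminoacyl-tRNA synthetases, which charge the transfer RNAs, 8 and 10 were above 0, and 2 and 2 had an unadjusted p under 0.05 (limma). Pars2, for proline, had means of -0.21 ± 0.22 and -0.13 ± 0.20, and Lars2, for leucine, 0.082 ± 0.082 and 0.044 ± 0.061 (adjusted p over both days 0.418 and 0.428, limma).

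Of 25 genes for assembly of the ribosome 13 were above 0 at day 7 and 11 at day 21. At an unadjusted p under 0.05 (limma) there were 4 at day 7, 3 higher and 1 lower, and 1 at day 21, against 9.49% and 5.85% of all genes. Ngrn, a factor for the large ribosomal RNA, gave 0.12, 0.33, 0.14, 0.27 and 0.089 at day 7 and 0.073, 0.25, 0.030, -0.012 and 0.19 at day 21, above 0 in 9 of 10 animals (both days 0.15, adjusted p = 0.394, limma). Of 24 genes for the upkeep of mitochondrial DNA and RNA 14 and 11 were above 0, and 1 and 0 had an unadjusted p under 0.05 (limma). Prorp, a part of the enzyme that trims transfer RNA ends, led them with 0.18 ± 0.21 and 0.030 ± 0.12 (adjusted p over both days 0.47, limma). Among 11 nuclear regulators 6 and 3 were above 0. At an unadjusted p under 0.05 (limma) there were 4 at day 7, 2 higher and 2 lower, and 1 at day 21, against the same shares of all genes (9.49% and 5.85%). Ppargc1a, the coactivator PGC-1α that drives formation of mitochondria, gave 0.12, 0.15, 0.43, 0.20 and 0.32 at day 7 and -0.014, 0.20, 0.36, -0.053 and 0.22 at day 21. All 5 animals were above 0 at day 7 and 3 of 5 at day 21 (both days 0.19, unadjusted p = 0.00152, adjusted p = 0.394, limma). Nrf1, whose site was searched in the promoters above, had means of -0.12 ± 0.14 and -0.062 ± 0.12 (adjusted p over both days 0.434, limma).

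The neighbouring gene groups were set beside the members animal by animal. Cytosolic ribosomal protein genes, the machinery for all other translation, had a mean above 0 for 71 of 81 at day 7 with a median of 0.10 after loess, and for 15 of 81 with a median of -0.12 under median centring. At day 21 it was above 0 for 44 of 81 with a median of 0.0099 (23 of 81 and -0.026 under median centring). Their animal medians at day 7 were -0.19, 0.033, 0.10, 0.11 and 0.39, a far wider range than that of the members in the same animals. Oxidative phosphorylation genes, encoded in the nucleus and assembled with the proteins that the mitochondrial ribosome makes, were above 0 for 51 of 69 at day 7 (median 0.050; 9 of 69 and -0.15 under median centring) and for 45 of 69 at day 21 (median 0.032; 29 of 69 and -0.0060). Their animal medians at day 7 were -0.065, 0.12, 0.13, 0.065 and 0.083. No gene of either group passed at an adjusted p of 0.05 at either day (limma; 10 of 81 and 11 of 69 at an unadjusted p under 0.05 at day 7, against 9.49% of all genes, and 0 of each at day 21, against 5.85%).

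Markers of other cell types moved between animals too, those of oligodendrocytes over the widest range. Their median log2 ratios over 12 genes were -0.50, 0.20, -0.062, 0.79 and 0.86 at day 7 and 0.53, -0.20, -0.26, 0.015 and -0.16 at day 21, and 12 of 12 were above 0 in day 7 replicates 4 and 5. In those animals the members' medians were -0.017 and 0.035 and those of the cytosolic ribosomal protein genes 0.11 and 0.39. Microglia markers (11 genes) had medians between -0.24 and 0.42, the highest in day 7 replicate 2, where 9 of 11 were above 0 and the members had their highest day 7 median, 0.087. Astrocyte markers (10 genes) ran from -0.25 to 0.47, highest in day 7 replicate 5, and 8 of 10 had a day 21 mean below 0. Endothelial and mural markers (9 genes) ran from -0.19 to 0.059, GABAergic interneuron markers (6 genes) from -0.12 to 0.51, and neuron markers (11 genes) from -0.092 to 0.15. The animal with the highest members' median, day 21 replicate 3, had 1 of 12 oligodendrocyte markers above 0. The part of these markers in the members' ratios was not tested.

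**Figure D5:**
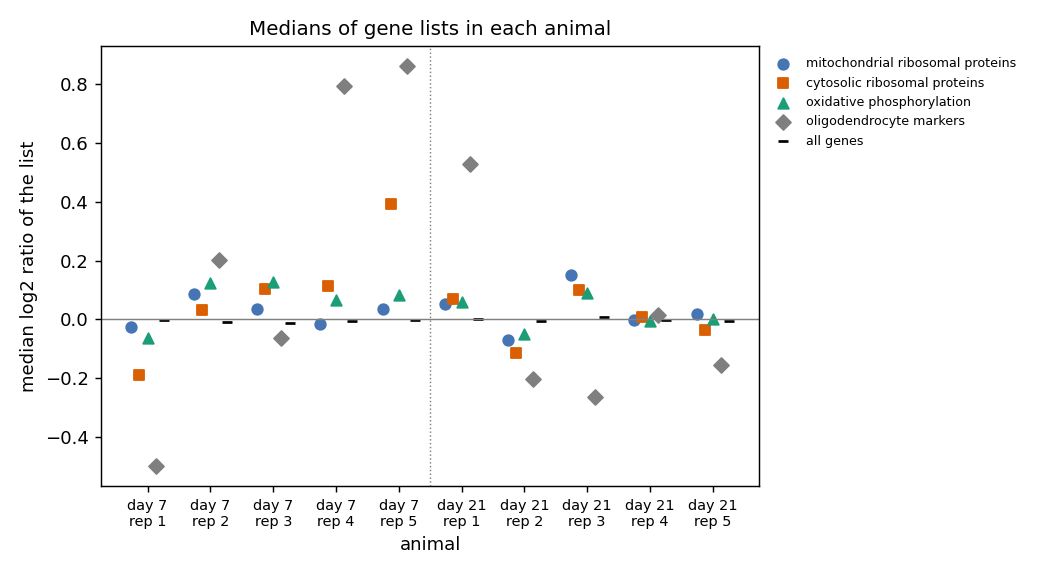
Median log2 ratio (y axis, loess scale) of 4 gene lists and of all genes in each animal (x axis); each symbol is 1 list in 1 animal. The oligodendrocyte markers run from -0.50 to 0.86 and the cytosolic ribosomal protein genes from -0.19 to 0.39, while the mitochondrial ribosomal protein genes stay between -0.070 and 0.15.

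Of the members, 7 had 2 or 3 probes that passed the filter, and the means of a gene's probes differed by 0.00021 to 0.070 at day 7 and by 0.021 to 0.085 at day 21. These gaps are under the 0.3 set for naming a disagreement but reach above the family's median. At day 21 the probes of Mrps14, Mrps27 and Mrps36 lay on both sides of 0, and at day 7 those of 0 genes did.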

How the data were processed

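The scanner files, made with Agilent Feature Extraction 9.1.3.1 per the file headers, give, for 43628 spots and each channel, an intensity (mean signal) and its local background, not normalized between arrays. A deposited table by the authors holds normalized log2 values of Cy5 over Cy3, whose method is not given in the sources used here; its 20 ratio columns served as an alternative and 20 other columns were not used. Each deposited log2 ratio column correlated best with its own array (r from 0.947 to 0.999).

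Signals were corrected with normexp (offset 50) and loess (span 0.3) in limma 3.58.1 under R 4.3.3, with 2256 control spots at weight 0 and outlier spots left out. Signs were set so that positive means more in sprouting neurons, and the dye-swapped arrays were averaged, so that the animal is the replicate. Median signals were 98.75 to 344.7 in Cy5 and 133.9 to 281.4 in Cy3, and 40.3% to 94.6% of probes were well above background. The filter kept probes bright enough (the software's flag for well above background) in a share of 0.5 or more of the arrays of any cell type and day, with 3 or more animals measured per day. Levels within a cell type were set between arrays by Aquantile. Tests were limma lmFit and eBayes with a mean per day over 33211 genes, two-sided, with Benjamini-Hochberg adjustment and a threshold of 0.05, and were checked on simulated data. The number of animals limits the precision.

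Array names were matched to the GRCr8 gene table: accessions named 10658 probes, symbols 4654 and synonyms 3917, and 21783 stayed under their array names. The members and all lists were chosen with earlier results of these data known. Members named by rule are, per contrast and direction, the 5 with the smallest p (3 for changes over time within a cell type), the highest and lowest mean of each subunit group, and members whose probes differ by over 0.3; each is described at least once, not for every contrast that names it. For other lists the rule takes up to 3 genes by p over both days, and fewer are printed here. Replicate numbers do not pair animals: the cohorts were separate, and no number's animals correlated best with each other. Alternatives were other background corrections, brightness filters, scales, probe rules, moderation and thresholds, and the deposited ratios. Others were 20 arrays with the animal as a block and a dye term, scan day and replicate number as blocks, and each animal left out. Leaving out spots with uneven background, and day 21 replicates 2 and 3 together, was added after seeing the data.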

Additional observations from a re-analysis of the deposited data

Results flagged for a closer look

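Among 106 sets of 5 animals (52 members and their median, at each day), 7 held an animal whose gap to the nearest other was more than 0.71 of the whole range; chance gives about 1 in 20, or 5.3. At day 7 these were Mrpl4 with 0.19 in replicate 2, Mrpl50 with 0.369 in replicate 1 and Mrps15 with -0.426 in replicate 1. At day 21 they were Mrpl4 with 1.96 and Mrpl34 with 0.326 in replicate 3, Mrpl50 with 0.613 in replicate 2, and Mrpl36 with -0.0815 in replicate 4. Without the animal named, the mean of Mrpl50 was -0.036 in place of 0.045 at day 7 and -0.035 in place of 0.095 at day 21, and that of Mrps15 at day 7 was 0.17 in place of 0.055. No member's difference between days passed the test.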

How the results depend on the processing

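Members past the threshold numbered 0 in every setting run, so no call of a member was gained or lost. The scale of the ratio moved the family's median: with median centring in place of loess it was -0.1158 at day 7, -0.0628 over both days and 0.1078 for the difference between days, where the brighter genes as a whole shifted too. The software's processed signals kept the sign, with medians of 0.031 and 0.059 and 35 and 40 of 52 members above 0. Leaving out each animal in turn, the median ranged from 0.0089 to 0.030 at day 7, from -0.0055 (without replicate 3) to 0.047 at day 21, from 0.0050 to 0.035 over both days, from -0.022 to 0.019 for the difference, from -0.030 to 0.042 for sprouting neurons over time and from -0.049 to 0.047 for non-sprouting neurons. Treating 20 arrays as samples with the animal as a random block gave 404 genes at day 7 in place of 1, 515 over both days and 4 for the difference in place of 0, with no member among them. A replicate block changed no call of a member and left 0 genes in place of 1 at day 7: the median of the members stayed at 0.0206 at day 7 and 0.0306 at day 21, and animals sharing a number correlated at -0.195 to 0.000568, so the numbers do not pair them. With scan day as a random block 0 members passed and the day 21 median was 0.031. Dim probes set a limit: 9 of the 52 members were not well above background in every channel, and Mrps10 was not tested.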
